A study of Rattus norvegicus with 6 samples.

Results

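A set of 10 immediate early genes outside the AP-1 family was followed in cultured primary disc cells from the temporomandibular (jaw) joint of the rat, where the disc is a fibrous cushion between the condyle and the skull. They are the nuclear receptor genes Nr4a1, Nr4a2 and Nr4a3, the zinc finger genes Egr1, Egr2, Egr3 and Klf4, and Myc, Ier3 and Gadd45b, chosen by symbol from a list of early response genes. All 10 were found among the 20675 genes of the deposited table. One group of 3 libraries came from disc cells given GSK101, an agonist of the calcium-permeable channel TRPV4, for 24 h, and the other 3 from disc cells given the solvent DMSO for the same time. Dose, strain, age and genotype are not given in the labels. Nothing in them tells if the 3 replicates of a group were separate animals or cultures, so the p-values cover only how these samples varied, which may be technical.

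Immediate early genes are switched on by growth factors, calcium entry or stress without the need for new protein synthesis. Their promoters are typically read by CREB at cyclic AMP response elements and by serum response factor (SRF) at CArG boxes, and their transcripts usually decay quickly, so that many are known as brief responses. The products are mainly transcription factors and stress regulators. In joint tissue NR4A receptors are known as genes induced by inflammatory signals, and EGR1 is known for its part in the tendon and matrix programme. The libraries were collected at a single time a day after the start of treatment, and earlier times are not analysed here.

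After 24 h of GSK101 the 3 NR4A genes and Myc were higher, Gadd45b was lower, and Egr1, Egr2, Klf4 and Ier3 did not pass the test. Nr4a1 had the largest change, with a 2.39-fold ratio of the mean RPKM (reads per kilobase of the gene, scaled to the library's counted reads). Egr3 was too low to be tested. In limma 4 of the 9 that entered the test rose and 1 fell at a Benjamini-Hochberg adjusted p under 0.05, where 31.9% of all 12801 tested genes were called, 20.1% as higher and 11.9% as lower. For 5 of the 9 the control and GSK101 values had no overlap, against 47.3% of all tested genes. The median log2 fold change of the 9 was 0.08 and that of all tested genes 0.03.

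**Figure D1:**
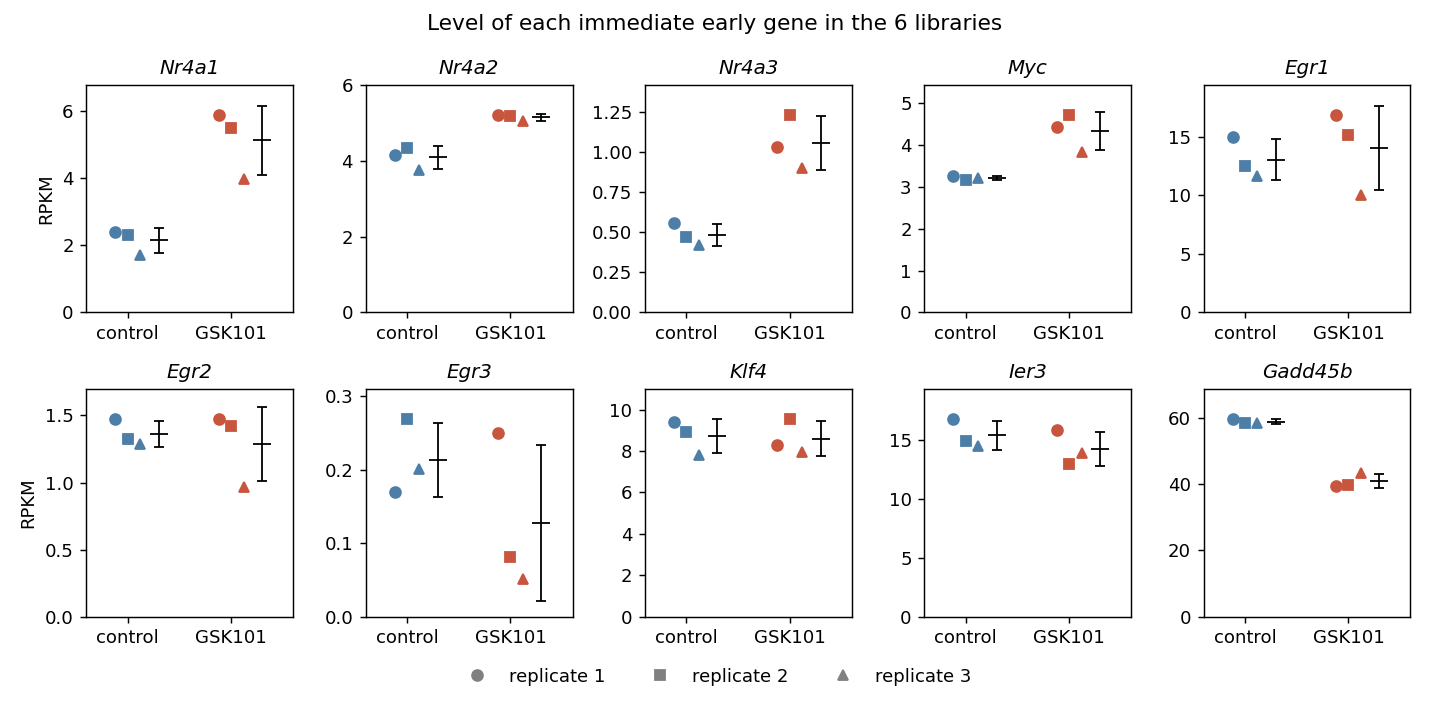
RPKM of each of the 10 genes on a linear axis from 0, with 1 symbol per library (circle, square and triangle for replicates 1, 2 and 3) and the group mean with its SD in black. Each GSK101 library lies above each control library for Nr4a1, Nr4a2, Nr4a3 and Myc and below each for Gadd45b, and the groups overlap for the other 5 genes.

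The sequences just upstream of the transcription start are shown for 3 genes that stand for the different responses: Nr4a1, which rose, Egr2, which did not pass the test, and Gadd45b, which fell. RefSeq promoters on build GRCr8 were matched for 6 of the 10 genes (Nr4a1, Nr4a2, Egr1, Egr2, Klf4 and Gadd45b). Each line holds the 250 bases before the start, read 5′ to 3′ on the gene's strand. The Nr4a1 window is chr7:134259888-134260137 on the plus strand, and its capitals mark TGACG, the core of the cyclic AMP response element, which appears as CGTCA when it lies on the other strand. The Egr2 window is chr20:21054442-21054691 on the minus strand, and its capitals mark TGACG and the CArG box. The Gadd45b window is chr7:9430719-9430968 on the minus strand, and its capitals mark TATAA, a form of the TATA box, and GGGCGG, the GC box.
Nr4a1: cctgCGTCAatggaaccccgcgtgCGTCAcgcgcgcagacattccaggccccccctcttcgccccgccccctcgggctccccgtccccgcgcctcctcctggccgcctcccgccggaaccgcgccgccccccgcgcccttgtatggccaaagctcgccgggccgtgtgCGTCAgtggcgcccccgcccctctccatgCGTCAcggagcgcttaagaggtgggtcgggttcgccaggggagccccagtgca
Egr2: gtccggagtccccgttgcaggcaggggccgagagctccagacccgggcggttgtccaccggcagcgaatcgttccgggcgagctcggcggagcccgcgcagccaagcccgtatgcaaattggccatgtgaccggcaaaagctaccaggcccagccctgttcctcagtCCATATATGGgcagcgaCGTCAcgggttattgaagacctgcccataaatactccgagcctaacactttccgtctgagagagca
Gadd45b: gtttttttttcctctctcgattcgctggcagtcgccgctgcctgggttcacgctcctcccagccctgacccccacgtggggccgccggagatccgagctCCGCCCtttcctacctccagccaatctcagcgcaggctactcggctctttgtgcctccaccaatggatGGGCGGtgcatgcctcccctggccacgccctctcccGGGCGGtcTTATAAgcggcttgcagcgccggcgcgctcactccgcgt

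The motifs searched on both strands in these windows were TGACG, the CArG box, the AP-1 site TGANTCA, the TATA box form TATAA, the GC box GGGCGG, and the EGR site, spelled GCGNGGGCG, which can overlap the GC box. Nr4a1 held 4 copies of TGACG, beginning 246, 226, 82 and 53 bases before the start. Of all 33469 promoters 18.2% held at least 1 copy and 0.173% held at least 4. Nr4a1 also held 1 EGR site, found in 4.29% of promoters. GC boxes numbered 3 in Nr4a1, 3 in Gadd45b and 1 in Egr2, where 30.5% of promoters held at least 1 and 14.8% at least 2. Egr2 held a CArG box beginning 83 bases before the start and a TGACG at 66. Egr1 held 2 copies of each, with CArG boxes at 105 and 83 and TGACG at 135 and 66. The CArG box was found in 1.5% of promoters and both motifs together in 0.23%. Nr4a2 held 1 TGACG and no CArG box, and Klf4 and Gadd45b held neither. The form TATAA was found in Klf4 and Gadd45b and in 24.0% of promoters. TGANTCA was in none of the 6 windows. Among the 6 matched genes, windows with TGACG occurred in called and in uncalled genes. The CArG box was searched in its strict form only, so near matches in the other windows were not counted. The called genes Nr4a3 and Myc had no window, and a tie between motifs and response was not tested. These matches describe letters in a window and are not evidence of binding.

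The NR4A genes encode orphan nuclear receptors that act without a known hormone and are controlled mainly by how much of them is made. Nr4a1, on Rnor_6.0 chromosome 7 from 142905758 to 142920216 with 8 exon blocks on the plus strand, had RPKM values of 2.41, 2.32 and 1.71 in the controls and 5.90, 5.51 and 3.97 with GSK101, on 201 to 699 reads per library. Each GSK101 library lay above each control library. The means were 2.15 ± 0.38 and 5.13 ± 1.02 (SD, n = 3). On the log2(RPKM + 0.5) scale the log2 fold change was 1.08 (SE 0.16, limma adjusted p = 0.00202). Its absolute log2 fold change was larger than that of 99.4% of tested genes.

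Nr4a3, which encodes the receptor NOR-1 and lies on chromosome 5 from 63781801 to 63821637, was scarce, with RPKM values of 0.558, 0.471 and 0.422 in the controls and 1.03, 1.24 and 0.904 with GSK101. It was higher in each GSK101 library, with 82 to 112 reads per control library and 171 to 246 per GSK101 library. The means were 0.484 ± 0.069 and 1.06 ± 0.17 (SD, n = 3), a 2.19-fold ratio. The log2 fold change was 0.66 (SE 0.12, limma adjusted p = 0.00598), a scale that understates changes at such low levels, and it was 1.12 with limma-voom on the recovered reads.

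Nr4a2, which encodes NURR1 and is found on chromosome 3, minus strand, from 43111240 to 43119159, was the most abundant of the family in the controls. Its RPKM values were 4.16, 4.35 and 3.76 in the controls and 5.22, 5.19 and 5.04 with GSK101. The groups did not overlap, and the GSK101 libraries lay close together. The means were 4.09 ± 0.30 and 5.15 ± 0.09 (SD, n = 3), a 1.26-fold ratio with a log2 fold change of 0.30 (SE 0.07, limma adjusted p = 0.0127). This was the smallest change among the genes called higher here.

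The measured changes of the paralogs differed in size, and so did their shares of the family. The summed RPKM of the 3 genes was 6.72 ± 0.71 in the controls (SD, n = 3) and 11.3 ± 1.23 with GSK101, a 1.69-fold ratio. Nr4a2 supplied 61.0 ± 2.73% of this sum in the controls and 45.8 ± 4.41% with GSK101. Nr4a1 went from 31.8 ± 2.47% to 44.9 ± 4.39%, and Nr4a3 from 7.20 ± 0.61% to 9.32 ± 0.95%. For all 3 shares the groups did not overlap, and the exact two-sided permutation p was 0.1, the smallest that 3 against 3 can give. The log2 ratio of Nr4a1 to Nr4a2 was -0.94 ± 0.18 in the controls and -0.03 ± 0.28 with GSK101, a difference of 0.92 (exact permutation p = 0.1, adjusted p = 0.18 over 9 pairs of paralogs). That of Nr4a2 to Nr4a3 differed by -0.79 (exact permutation p = 0.1, adjusted p = 0.18). That of Nr4a1 to Nr4a3 differed by 0.13, with groups that overlapped (exact permutation p = 0.5, adjusted p = 0.5). None of these tests could have passed a threshold of 0.05.

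**Figure D2:**
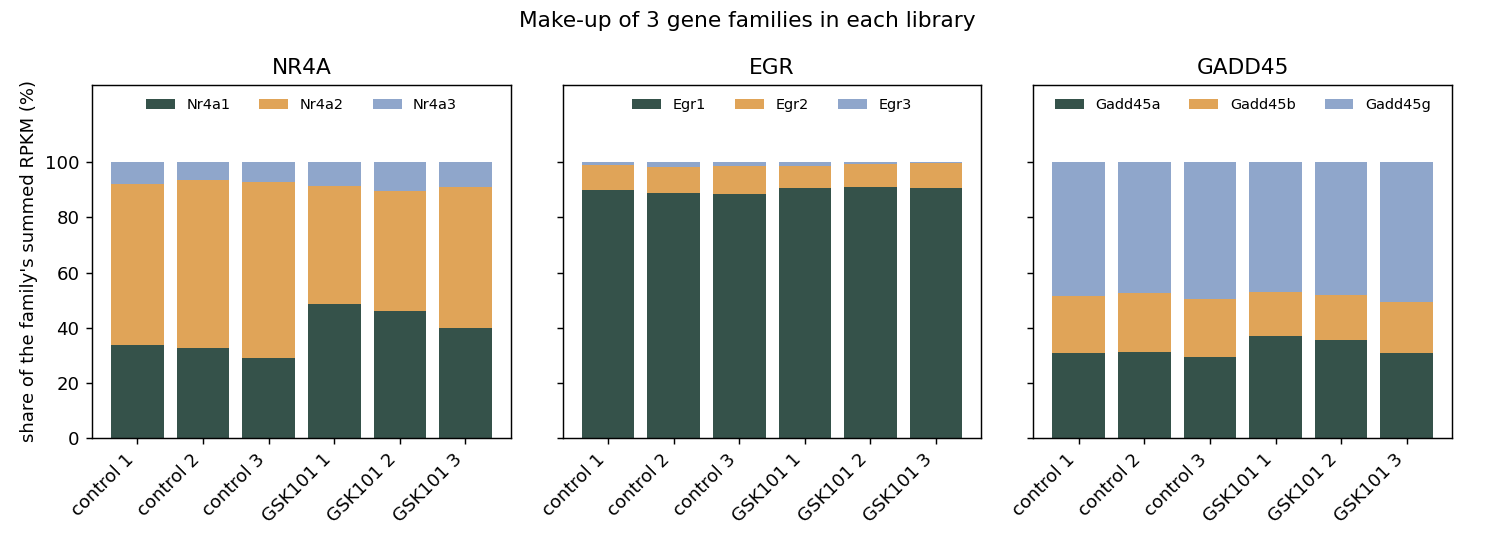
Share of each paralog in the summed RPKM of its family, in percent, as stacked bars for the 3 control and 3 GSK101 libraries. Nr4a1 takes 29.0% to 33.8% of the NR4A sum in the controls and 40.0% to 48.5% with GSK101. Egr1 takes 88.6% to 91.0% of the EGR sum, without Egr4, in all 6 libraries. Gadd45b takes 21.0% to 21.3% of the GADD45 sum in the controls and 15.9% to 18.5% with GSK101.

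Among possible partners of the NR4A receptors, Rxra, which encodes a retinoid X receptor that pairs with NR4A1 and NR4A2, rose from 2.64 ± 0.18 to 3.72 ± 0.01 RPKM (SD, n = 3), with a log2 fold change of 0.43 and limma adjusted p = 0.00335. Rxrb did not pass, at 2.41 ± 0.07 and 2.25 ± 0.24.

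Myc encodes a transcription factor that pairs with MAX and drives genes of growth and ribosome production. It lies on chromosome 7 from 102586313 to 102591240, in 3 exon blocks. Its RPKM values were 3.27, 3.16 and 3.21 in the controls and 4.43, 4.73 and 3.83 with GSK101. The controls were nearly level and each GSK101 library was above them. The means were 3.21 ± 0.05 and 4.33 ± 0.46 (SD, n = 3), a 1.35-fold ratio with a log2 fold change of 0.38 (SE 0.08, limma adjusted p = 0.0112).

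Of 10 tested genes of the MYC and MAX network 1 was higher and 1 was lower, against 31.9% of all tested genes called. Mga, which encodes a MAX partner, rose by 0.53 on the log2 scale (limma adjusted p = 0.00327). Mxd4, which encodes a MAX partner that opposes MYC, fell by 0.20 (limma adjusted p = 0.0256), a call kept in 10 of 16 alternatives. Max itself, at 33.2 ± 0.79 and 35.7 ± 1.06 RPKM, did not pass (adjusted p = 0.105).

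Of 30 tested genes listed as MYC targets 19 were higher and 1 was lower, 66.7% called against 31.9% of all tested genes, with a median log2 fold change of 0.22 against 0.03. In the alternatives 14 to 20 were higher, with 15 after quantile normalization and 14 without GSK101 replicate 1. The 4 with the smallest adjusted p were Ldha, Hk2, Tfrc and Ddx21. Ldha, lactate dehydrogenase A, went from 374 ± 21.8 to 565 ± 32.02 RPKM (SD, n = 3). The glycolytic enzyme gene Hk2 rose 1.71-fold, the transferrin receptor gene Tfrc 1.74-fold and the nucleolar helicase gene Ddx21 1.37-fold. Odc1, ornithine decarboxylase, was the member that fell, by 0.19 on the log2 scale, and was chosen after its value was seen. In the same libraries all 12 tested proliferation markers were higher, with a median log2 fold change of 0.72 and Mki67 at 16.1 ± 0.84 and 35.4 ± 0.26 RPKM. Top2a, Rrm2 and Ccna2 rose by 1.19, 0.81 and 0.80 on the log2 scale. The part of proliferation in the changes of Myc and the listed targets was not tested. In such bulk samples a change in the number of cells that express a gene and a change in its RNA per cell cannot be told apart.

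**Figure D3:**
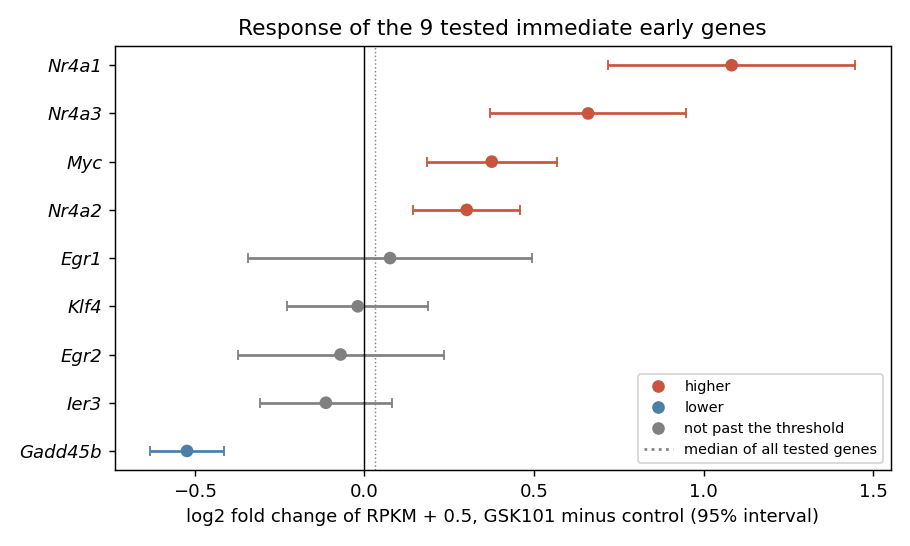
Log2 fold change of RPKM + 0.5, GSK101 minus control, for the 9 tested genes, with 95% intervals from limma and a dotted line at the median of all tested genes. Nr4a1 at 1.08, Nr4a3, Myc and Nr4a2 lie above 0 with their intervals, Gadd45b at -0.52 lies below, and the intervals of the other 4 genes include 0.

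Gadd45b encodes a small stress sensor that binds the kinase MAP3K4 upstream of p38 and JNK. It is found on chromosome 7, minus strand, from 11646269 to 11648322 and was the most abundant of the 10 genes in both groups. Its RPKM values were 59.8, 58.5 and 58.4 in the controls and 39.5, 39.9 and 43.3 with GSK101, on 2286 to 3551 reads per library. All GSK101 libraries lay below all controls, and the controls differed by little. The means were 58.9 ± 0.77 and 40.9 ± 2.09 (SD, n = 3). The log2 fold change was -0.52 (SE 0.05, limma adjusted p = 0.000296), which makes the controls 1.44-fold higher. Of the genes called lower 235, Gadd45b included, fell by at least as much.

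Its relatives Gadd45a and Gadd45g were more abundant still. Gadd45g went from 135 ± 4.04 to 117 ± 1.03 RPKM (SD, n = 3) and fell by 0.20 on the log2 scale (limma adjusted p = 0.00624). Gadd45a did not pass, with 84.4 ± 3.81 and 83.1 ± 9.92 and a 95% interval of its log2 fold change from -0.22 to 0.17. The share of Gadd45b in the summed RPKM of the 3 genes went from 21.2 ± 0.20% to 17.0 ± 1.37%, with no overlap (exact permutation p = 0.1). Map3k4 did not pass, at 2.48 ± 0.05 and 2.87 ± 0.28 RPKM. Pcna, which encodes a replication clamp that binds GADD45 proteins and is also a proliferation marker, rose by 0.46, and Gadd45gip1 fell by 0.11 with a call kept in 5 of 16 alternatives.

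The EGR genes encode zinc finger factors that bind GC-rich sites. Egr1, on chromosome 18 from 27657628 to 27661429 in 2 exon blocks, had RPKM values of 15.0, 12.5 and 11.6 in the controls and 16.9, 15.2 and 9.99 with GSK101. The groups overlapped, since the GSK101 libraries held both the highest and the lowest value. The means were 13.03 ± 1.72 and 14.01 ± 3.58 (SD, n = 3). The log2 fold change was 0.08, and its 95% interval ran from -0.34 to 0.49 (limma adjusted p = 0.783). This interval allows a fold change between 0.789 and 1.41. Without GSK101 replicate 3 the log2 fold change was 0.29 (adjusted p = 0.0908).

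Egr2, also called Krox20, is found on chromosome 20, minus strand, from 22454463 to 22459025. It had RPKM values of 1.48, 1.32 and 1.29 in the controls and 1.47, 1.42 and 0.970 with GSK101. Here too GSK101 replicate 3 was the lowest of the 6 libraries and the others overlapped. The log2 fold change was -0.07, and its 95% interval ran from -0.37 to 0.23 (limma adjusted p = 0.723).

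Egr3, on chromosome 15 from 51756736 to 51760715, was the least abundant of the 10 genes and fell under the filter. Its RPKM values were 0.170, 0.269 and 0.201 in the controls and 0.249, 0.082 and 0.052 with GSK101, on 6 to 32 reads per library. The groups overlapped (exact two-sided permutation p = 0.3), and no difference was detectable at this depth.

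The symbol Egr4 was not found in the deposited table, so the EGR sum covers Egr1, Egr2 and Egr3 only. Egr1 made up 89.2 ± 0.81% of this summed RPKM in the controls (SD, n = 3) and 90.8 ± 0.15% with GSK101. The sum was 14.6 ± 1.80 and 15.4 ± 3.94 RPKM with overlapping groups (exact permutation p = 0.8). The log2 ratio of Egr1 to Egr2 differed by 0.18 without overlap (exact permutation p = 0.1, adjusted p = 0.18). The corepressor genes Nab1 and Nab2, whose products bind EGR proteins, were measured as well. Nab1 did not pass, at 19.99 ± 0.39 and 20.2 ± 0.78 RPKM. Nab2, at 24.4 ± 1.77 and 27.8 ± 0.44 RPKM, rose by 0.19 (limma adjusted p = 0.0414), a call kept in 7 of 16 alternatives.

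Of 11 tested genes listed as EGR1 targets 4 were higher and 2 were lower, 54.5% called against 31.9% of all tested genes, with a median log2 fold change of -0.14. Scx, the tendon transcription factor scleraxis, fell by 0.82, from 34.7 ± 1.08 to 19.6 ± 1.76 RPKM (SD, n = 3). Pdgfa, a growth factor gene, fell by 0.23. Cd44, which encodes a hyaluronan receptor, rose 1.30-fold and F3, tissue factor, 1.28-fold. The counts were 3 and 4 with median-ratio scaling, 2 were higher without GSK101 replicate 1, GSK101 replicate 2 or control replicate 2, and 4 were lower without control replicate 3. Thus the listed genes moved in both directions, and Egr1 itself did not pass the test.

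Klf4, a Krüppel-like zinc finger factor known from cell growth arrest and reprogramming, is found on chromosome 5, minus strand, from 72283313 to 72287669. It had RPKM values of 9.41, 8.91 and 7.82 in the controls and 8.28, 9.56 and 7.95 with GSK101. The groups overlapped. The log2 fold change was -0.02, and its 95% interval ran from -0.23 to 0.19 (limma adjusted p = 0.893), and its sign changed with the scaling, to 0.02 after rescaling to TPM.

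Of the 12 other tested KLF genes 5 were higher and 1 was lower, where 31.9% of all tested genes were called. Klf15, known from glucocorticoid and metabolic control, had 4.06 ± 0.39 RPKM in the controls and 1.97 ± 0.26 in the treated cells (SD, n = 3). It fell by 0.88 on the log2 scale (limma adjusted p = 0.000815). Klf10, known as a TGF-beta inducible early gene, rose 1.74-fold, from 1.74 ± 0.23 to 3.04 ± 0.54. Klf7 rose 1.38-fold and Klf12 1.51-fold. The number of higher KLF genes was 2 without GSK101 replicate 1 and 3 without GSK101 replicate 2 or control replicate 2.

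Ier3, also called IEX-1, encodes a short-lived regulator of cell survival, and is found on chromosome 20, minus strand, from 3438798 to 3440769. Its RPKM values were 16.8, 15.0 and 14.5 in the controls and 15.8, 13.0 and 13.9 with GSK101. GSK101 replicate 1 lay within the control range and the other 2 below it. The log2 fold change was -0.11, and its 95% interval ran from -0.31 to 0.08 (limma adjusted p = 0.349).

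By RPKM, which is scaled to gene length, the order of the 10 genes in the controls was Gadd45b, Ier3, Egr1, Klf4, Nr4a2, Myc, Nr4a1, Egr2, Nr4a3 and Egr3. In that order Ier3 and Egr1 were the only neighbours whose ranges over the 3 libraries overlapped. With GSK101 Nr4a1 passed Myc in the order, and Nr4a2, Nr4a1 and Myc overlapped in sequence, as did Ier3 with Egr1 and Egr2 with Nr4a3. None of the 10 genes shares exon positions with another gene of the table.

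Genes of the wider early response were mixed. Of 29 tested early response genes outside the 10 and outside AP-1, 6 were higher and 6 were lower, 41.4% called against 31.9% of all tested genes, with a median log2 fold change of 0.06. Errfi1, a feedback inhibitor of the EGF receptor, rose from 5.95 ± 1.28 to 14.03 ± 3.1 RPKM (SD, n = 3), with a log2 fold change of 1.17. Bhlhe40, a transcriptional repressor of the clock, rose 1.56-fold. Cyr61, which encodes the matricellular protein CCN1, fell by 0.29, and Ifrd1 fell by 0.35. Of the 9 AP-1 genes in the test 4 rose and 2 fell, 66.7% called against 31.9% of all tested genes. Fos and Fosl1 were up by 0.91 and 0.87 and Jund and Jdp2 down by 0.44 and 0.20 on the log2 scale.

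**Figure D4:**
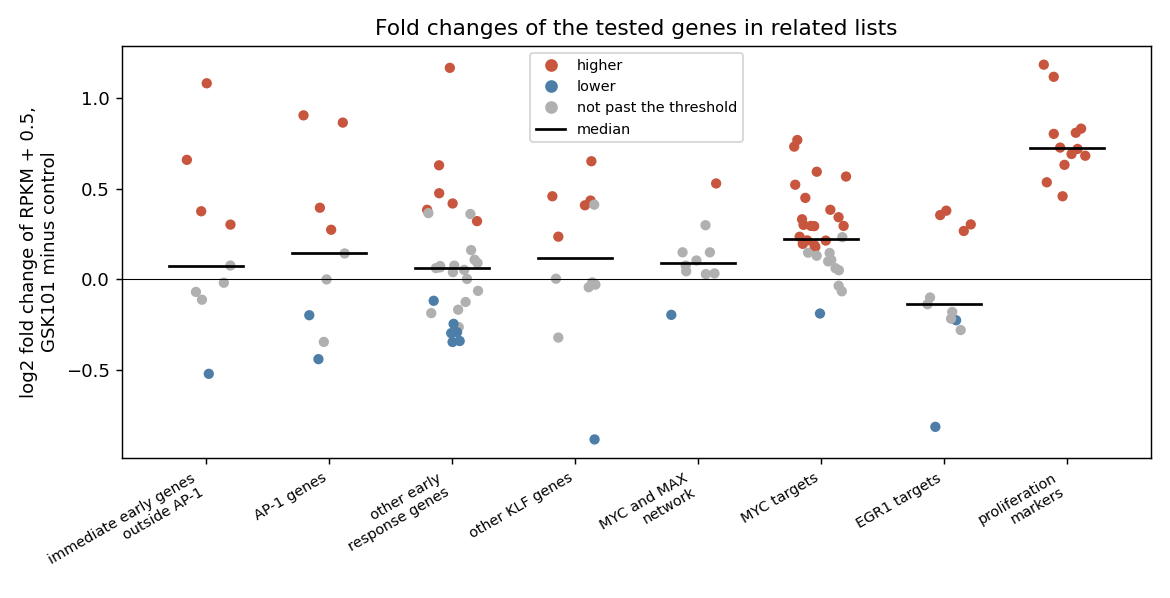
Log2 fold change of RPKM + 0.5, GSK101 minus control, for each tested gene of 8 lists (1 point per gene, placed sideways at random, coloured by its limma call), with the median of each list as a black line. The medians of the early response lists lie between 0.06 and 0.14, that of the MYC targets at 0.22 and that of the proliferation markers at 0.72.

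Transcripts of CREB, MEF2 and SRF factors, with their relatives, cofactors and repressors, were counted as well. Of 17 tested genes of the CREB and MEF2 group 5 were higher and none lower, 29.4% called against 31.9% of all tested genes. The counts were 3 and 1 with median-ratio scaling, and 1, 2 and 2 were higher without GSK101 replicate 1, GSK101 replicate 2 or control replicate 2. Hdac4, a repressor of MEF2, rose by 0.32 (limma adjusted p = 0.00699), Camk2d, a calcium-activated kinase gene, by 0.19, Creb1 by 0.43 and Mef2a by 0.20. Creb1, Mef2a and Camk2d kept their calls in 12, 10 and 14 of 16 alternatives. Of 5 tested SRF cofactors and ternary complex factors 1 was called, Elk4, which rose by 0.27 with a call kept in 9 of 16 alternatives. Srf itself, chosen here after its values were seen, did not pass, at 12.8 ± 0.90 and 13.3 ± 0.40 RPKM.

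Since GADD45 and KLF genes are also stress responsive, targets of the tumour suppressor p53 were counted as well. Of 15 tested 2 were higher, Mdm2 by 0.21 and Ccng1 by 0.19 on the log2 scale, and none was lower, 13.3% called, below the 31.9% of all tested genes. With median-ratio scaling or quantile normalization 1 was higher and 3 were lower. None was higher without GSK101 replicate 1 or control replicate 2, and 1 was higher without GSK101 replicate 3. Ccng1 kept its call in 8 of 16 alternatives.

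The libraries held 43061102 to 45705238 counted reads. In all, 2570 genes were called higher and 1518 lower, so that 62.9% of the calls were higher, and this share moved to 72.4% after rescaling to TPM, 52.7% with median-ratio scaling and 48.1% with quantile normalization. Fibroblast markers were abundant, with a summed RPKM of 3230 to 3640 in the controls and 2826 to 3166 with GSK101 over 5 genes. The most abundant, Col1a1, did not pass, at 1903 ± 135 and 1637 ± 140 RPKM (SD, n = 3, limma adjusted p = 0.0652). Thy1, at 1500 ± 76.5 and 1282 ± 21.3, came next. Of the 5 tested Pdgfra, Lum and Dcn were higher and Thy1 was lower, where 31.9% of all tested genes were called. There were 2 in each direction under median-ratio scaling and 1 higher and 2 lower without GSK101 replicate 2, and Dcn kept its call in 7 of 16 alternatives. Of the 5 chondrocyte markers found, 2 were tested and none was called, with Acan at 33.6 ± 3.88 and 31.9 ± 0.82 RPKM and Sox9 at 2.80 ± 0.16 and 2.46 ± 0.21 (SD, n = 3). Markers of other cells were low: the summed level was 7.35 to 10.6 in the controls and 8.07 to 11.4 with GSK101 for 5 macrophage and leukocyte genes, 0.667 to 0.854 and 1.10 to 1.26 for 4 endothelial genes, 2.08 to 2.34 and 1.79 to 1.98 for 4 epithelial genes, and 0.892 to 1.20 and 1.21 to 1.66 for 4 skeletal muscle genes. In each of these 4 lists 3 genes had a mean RPKM under 0.5, and none was at 0 in all 6 libraries. Among these Cd14 rose by 0.63 and Kdr, the only tested endothelial gene, by 0.53 on the log2 scale. Kdr was near the filter, at 0.551 and 1.01 RPKM, and a mean RPKM of at least 1 left it out. Cd68, the other tested macrophage and leukocyte gene and the more abundant, did not pass, at 6.01 and 5.83 RPKM. Its log2 fold change was -0.051 (limma adjusted p = 0.885). The only tested epithelial gene, Krt8, was at 2.09 ± 0.13 and 1.72 ± 0.16 RPKM and the only tested muscle gene, Des, at 0.647 ± 0.158 and 0.869 ± 0.115 (SD, n = 3), and neither passed the test. The summed level of 5 glia and neuron markers was 22.8 to 24.1 and 24.6 to 29.0, most of it S100b, with a log2 fold change of 0.27 (limma adjusted p = 0.0402), a call kept in 7 of 16 alternatives and lost with median-ratio scaling, with quantile normalization, without the filter, without the mean-variance trend and without any 1 library other than GSK101 replicate 3. The part of other cell types in the results above was not tested.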

How the data were processed

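RNA sequencing of 3 GSK101 and 3 control libraries was deposited by the authors as 1 table of RPKM for 20675 genes, with exon positions on Rnor_6.0. Per the submitters' processing notes the tools were STAR 2.5.3a, Trimmomatic 0.36, edgeR 3.12.1, Subread 1.5.1 and featureCounts, with no roles stated. Nothing is stated on the handling of molecular identifiers, strand or multi-mapping reads. RPKM multiplied by length came out as whole reads, to within 0.01 of a read, for 100% of values. Mates of a pair may each have been counted, since 71.3% to 74.7% of the genes with 1 to 10 reads had an even number.

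The test was limma 3.58.1 (R 4.3.3) with a mean-variance trend, fitted to log2(RPKM + 0.5) by group alone, over the 12801 genes that reached 0.5 RPKM in 3 or more libraries. A call needed a Benjamini-Hochberg adjusted p under 0.05. Single values were compared by exact two-sided permutation tests, which cannot give a p under 0.1 here. The fit was also run on simulated reads, drawn independently with the same dispersion for every gene, which is simpler than these data. No result above rests on that run. Alternatives changed the pseudocount, filter, scaling, variance model, replicate block or libraries used. The members and gene lists were chosen with earlier results of these data known. The members are named whatever their values. From each list up to 4 called genes with the smallest adjusted p are named, or up to 2 of its most abundant tested genes where none was called, and other names were chosen after their values were seen.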

Additional observations from a re-analysis of the deposited data

How the results depend on the processing

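The calls of Nr4a1, Nr4a2, Myc and Gadd45b held in all 16 alternatives and that of Nr4a3 in the 15 that tested it, since a mean RPKM of at least 1 left it out. Their limma adjusted p ran up to 0.0101, 0.0477, 0.0430, 0.00223 and 0.0228 in that order. The counts of higher and lower genes stayed within 1.5 times of 2570 and 1518 in each alternative. The labels do not say if the replicate numbers pair the samples. Over all tested genes, deviations from the group means correlated at 0.05, -0.06 and 0.05 for numbers 1, 2 and 3. Between different numbers the correlations ran from -0.15 to 0.11. With 3 libraries per group these values cannot decide if the samples were paired. The replicate block gave 2508 higher and 1437 lower genes and the same 4 higher and 1 lower early genes. Among the 10 genes signs changed for Klf4, Egr1 and Egr2, which had not passed: the log2 fold change of Klf4 was 0.017 after rescaling to TPM, and leaving out 1 library in turn gave -0.094 to 0.036 for Klf4, -0.070 to 0.29 for Egr1 and -0.15 to 0.065 for Egr2. The same left-out libraries moved the share of Gadd45g in its family from 0.11 percentage points higher with GSK101 to between -0.865 and 0.841. Egr3 was tested only without the filter, with a log2 fold change of -0.20 and adjusted p = 0.386. Depth limits Egr3, at 6 to 32 reads per library, and Nr4a3, at 82 to 246.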

Other observations

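The 10 genes took similar positions within each group. GSK101 replicate 3 held the lowest value of its group for 8 of the 10, the exceptions being Ier3 and Gadd45b, where 37.4% of all tested genes had their lowest value in that library. Control replicate 1 held the highest control value for 8 of the 10 (34.5% of all tested genes) and control replicate 3 the lowest for 8 of the 10 (35.2%). Of the 5 called genes all 5 had their value nearest the control mean in GSK101 replicate 3, as did 36.7% of all called genes. Within GSK101 the coefficient of variation was 25.6% for Egr1, 21.5% for Egr2 and 19.9% for Nr4a1, against a median of 5.81% over all tested genes, and 1.84% for Nr4a2. Within the controls it was 13.2%, 7.31% and 17.7% for Egr1, Egr2 and Nr4a1, against a median of 6.95%, and 7.29% for Nr4a2.

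Genes were also ranked by the root mean square difference of their log2(RPKM + 0.5) values from those of each called gene over the 6 libraries, each centred on its own mean. The closest to Nr4a1 were Tnn, which encodes tenascin N (0.06), and Errfi1 (0.07). Naa40 and Pcgf6 were closest to Nr4a2 (0.01 and 0.02), Dab2 and Fsbp to Nr4a3 (0.05 and 0.06), RT1-M6-2 and Pdpn to Myc (0.01 and 0.03), and Mcam and Cgref1 to Gadd45b (0.02 and 0.03). The list is a description of 6 libraries that share 2 groups.

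Genes with exons within 50 kb of the 10 genes numbered 28, of which 19 were tested, 4 were higher and 1 was lower, where 31.9% of all tested genes were called. The called neighbours were Stx17 beside Nr4a3 (0.21), Etf1 beside Egr1 (0.39), Lmnb2 beside Gadd45b (0.64), and Mdc1 (0.71) and Flot1 (-0.34) beside Ier3. No tested neighbour of Nr4a1 was called.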
